A study of Mus musculus with 16 samples.

Results

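The replication-dependent histone genes encode the core histones H2A, H2B, H3 and H4 that package newly made DNA, and 45 of them were measured here by 50 probes, among 16593 genes with a name and 25697 probes on the array. They were chosen by symbol, as every gene named H2ac, H2bc, H3c or H4c followed by a number, and comprised 14 H2A, 12 H2B, 9 H3 and 10 H4 genes. RNA came from fibro/adipogenic progenitors (FAPs), mesenchymal progenitor cells of skeletal muscle, which were grown in culture from Balb/cJ mice. Donor mice were either wild type or lacked the alpha chain of the interleukin-4 (IL-4) receptor (IL-4Ra-/-, called the knockout below), and the cells received either vehicle or recombinant IL-4. Each of the 4 groups had 4 Illumina bead arrays, which the series calls biological replicates. How the mice were shared between arrays, the IL-4 dose and time, and the age of the mice are not given in the sources used here.

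Most core histone genes of this kind lie in clusters and have no introns. Their transcription rises when a cell enters S phase, the part of the cell cycle in which DNA is copied, and their messages end in a stem-loop instead of a poly(A) tail. The stem-loop is bound by SLBP, which serves processing, export and translation of the message, and the message is degraded when replication ends. H2A and H2B form one dimer of the nucleosome and H3 with H4 the central tetramer. Many H2A and H2B genes stand head to head and share the stretch of DNA between their starts as a promoter. Standard bead array labelling often starts from an oligo(dT) primer, which needs a poly(A) tail; which primer was used is not given in the sources used here. A probe can therefore report polyadenylated copies of a histone message, and copies of a histone gene are so alike in their coding sequence that a probe can also bind RNA of a neighbouring copy. Probe sequences were not used here, so a value is that of the probe annotated to a gene, and how far copies share signal was not tested.

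Of the 45 genes, 38 lie on chromosome 13 and 7 on chromosome 3. RefSeq promoter windows, from 250 bases before to 50 bases after a gene's start (build GRCm38.p6, the C57BL/6J reference and not the Balb/cJ strain of the cells), were found for 41 of the 45. Of the head-to-head pairs in that table, 5 had starts at most 250 bases apart, and the whole stretch between the starts is printed below because the H2A and the H2B gene of a pair passed the test in opposite directions in 3 of them. Capitals mark CCAAT, which reads as ATTGG on the other strand, the TATA box with the letters TATAAA, and the octamer with the letters ATTTGCAT, each searched on both strands; none overlaps another in the stretches shown. The plus strand is shown. The pairs are H2bc7 and H2ac7 at chr13:23574208-23574380, H2ac12 and H2bc12 at chr13:22035644-22035820, H2ac11 and H2bc11 at chr13:22042950-22043197, H2ac15 and H2bc15 at chr13:21753913-21754075, and H2ac8 and H2bc8, whose probes were both near the array minimum, at chr13:23571221-23571399.
H2bc7/H2ac7: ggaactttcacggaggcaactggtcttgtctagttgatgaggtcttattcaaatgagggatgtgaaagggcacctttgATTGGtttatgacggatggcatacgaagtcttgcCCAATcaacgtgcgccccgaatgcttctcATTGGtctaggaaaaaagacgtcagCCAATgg
H2ac12/H2bc12: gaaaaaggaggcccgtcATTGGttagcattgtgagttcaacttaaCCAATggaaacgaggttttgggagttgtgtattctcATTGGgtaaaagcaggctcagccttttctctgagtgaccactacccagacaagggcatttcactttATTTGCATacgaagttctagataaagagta
H2ac11/H2bc11: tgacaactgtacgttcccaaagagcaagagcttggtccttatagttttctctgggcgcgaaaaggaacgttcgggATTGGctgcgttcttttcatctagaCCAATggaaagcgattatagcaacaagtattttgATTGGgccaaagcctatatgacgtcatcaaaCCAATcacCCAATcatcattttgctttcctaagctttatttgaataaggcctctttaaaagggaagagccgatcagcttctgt
H2ac15/H2bc15: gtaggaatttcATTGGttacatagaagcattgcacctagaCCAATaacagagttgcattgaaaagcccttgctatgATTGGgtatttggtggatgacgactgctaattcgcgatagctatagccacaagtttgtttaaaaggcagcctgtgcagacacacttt
H2ac8/H2bc8: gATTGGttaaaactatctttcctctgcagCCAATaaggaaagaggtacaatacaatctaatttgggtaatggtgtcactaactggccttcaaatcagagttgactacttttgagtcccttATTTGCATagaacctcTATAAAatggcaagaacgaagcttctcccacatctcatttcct

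The 250 bases before the starts of H2ac24, the H2A gene with the largest difference between genotypes, and H2bc9, the H2B gene whose response differed between genotypes, follow on the minus strand that both genes use, at chr13:21833476-21833725 and chr13:23543445-23543694.
H2ac24: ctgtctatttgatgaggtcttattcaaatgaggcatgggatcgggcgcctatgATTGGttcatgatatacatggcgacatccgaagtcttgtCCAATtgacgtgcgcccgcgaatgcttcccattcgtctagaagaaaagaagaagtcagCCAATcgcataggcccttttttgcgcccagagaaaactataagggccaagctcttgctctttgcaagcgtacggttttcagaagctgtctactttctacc
H2bc9: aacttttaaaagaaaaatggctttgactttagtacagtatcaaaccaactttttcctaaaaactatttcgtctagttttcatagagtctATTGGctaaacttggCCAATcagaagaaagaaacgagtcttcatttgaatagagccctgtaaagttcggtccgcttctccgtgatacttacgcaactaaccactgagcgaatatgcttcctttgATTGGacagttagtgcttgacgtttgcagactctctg
The H2ac7 and H2ac24 stretches share a run of 25 identical bases, ttgatgaggtcttattcaaatgagg, and the H2ac11 and H2ac24 stretches a run of 22 bases, ccttatagttttctctgggcgc, which stands in the printed H2ac11 line and on the strand opposite to the printed H2ac24 line. No other pair of the 7 printed sequences shared more than 11 bases in a row. CCAAT was present in the windows of 14 of 14 H2A, 11 of 11 H2B, 7 of 7 H3 and 2 of 9 H4 genes, against 37.4% of the 32851 promoter windows in the table. TATAAA was present for 11 of 14 H2A, 6 of 11 H2B, 2 of 7 H3 and 6 of 9 H4 genes, against 13.6% of all windows. The octamer was present for 6 of 14 H2A and 7 of 11 H2B genes and for 0 of 7 H3 and 0 of 9 H4 genes, against 1.74% of all windows. These are matches of letters in a window of 300 bases and describe sequence alone.

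Values are on a scale read as log2, with 7.72 the lowest and 14.77 the highest on any array, and the authors' normalization gave every array nearly the same distribution. A total change of RNA per cell is therefore not visible, and in cultures of mixed cells fewer cells of a type and less RNA per cell cannot be told apart. A probe whose mean lay within 0.15 of the array minimum is called near the minimum here. Of the 45 genes, 15 (33.3%) were near the minimum, against 53.3% of all named genes; they were 4 H2A, 3 H2B, 4 H3 and 4 H4 genes, and 0 of them passed a test below. The 5 further probes of H2bc18, H2bc4, H3c14 and H3c7 were all dimmer than the probe that stands for the gene. FAP markers such as Pdgfra, Dcn, Thy1 and Vim were well above the minimum, while 5 of 8 myogenic genes (among them Pax7 and Myf5), 5 of 8 leukocyte genes (Ptprc and Adgre1) and 5 of 8 endothelial genes (Pecam1 and Cdh5) were near it. Of 8 pericyte and smooth muscle genes 3 were near it, Rgs5 among them, and the smooth muscle actin gene Acta2, which activated fibroblasts also express, was far above it. The deleted gene itself had no named probe, and the genotype of the arrays was therefore taken from the labels alone. Knockout vehicle arrays 2 and 3 stood apart from the other knockout arrays on the third principal component of all probes, which held 5.39% of the variance, at -6.95 and -7.52 against -2.16 to 4.77.

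**Figure D1:**
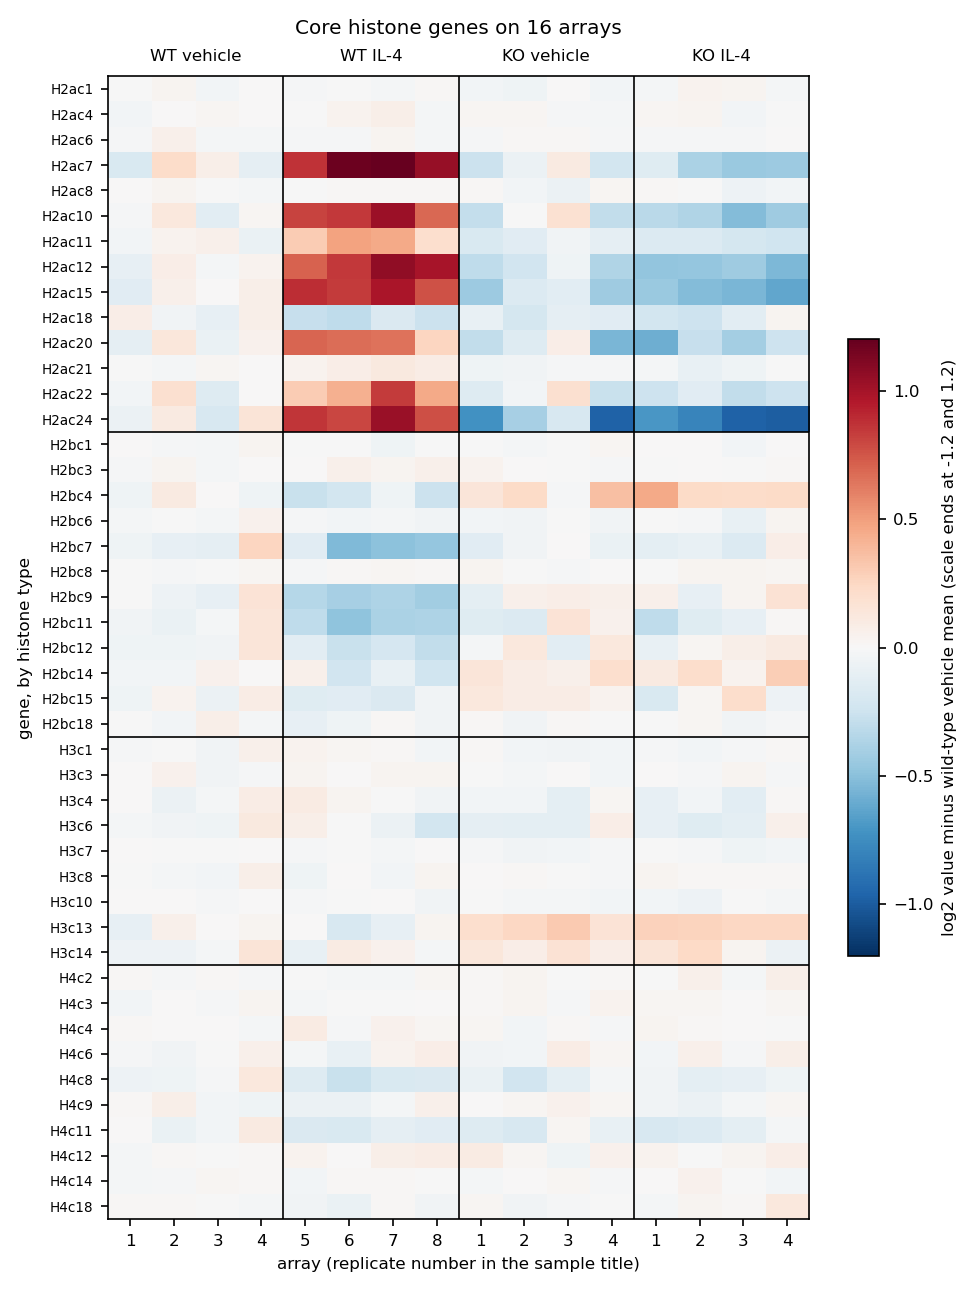
Log2 value of each measured histone gene (rows, by type) on each of the 16 arrays (columns, by group), minus the gene's mean in wild type under vehicle; the colour scale is clipped at 1.2 on either side. Of the 9 H2A genes that rose, all but H2ac21 (a rise of 0.08) stand out on the 4 wild-type IL-4 arrays. Most H3 and H4 rows differ little from array to array, and 4 of the 9 H3 and 4 of the 10 H4 genes were near the minimum.

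The first comparison was IL-4 against vehicle in wild-type FAPs. IL-4 raised 9 of the 14 H2A genes, the largest being H2ac7 at 2.19-fold, and lowered 4 of the 12 H2B genes, by up to 0.41 on the log2 scale for H2bc7. None of the 9 H3 genes and 1 of the 10 H4 genes, H4c8, passed the test. In all, 15 of 45 genes passed at a limma adjusted p under 0.05, 9 higher and 6 lower, against 15.9% of all named genes (7.14% higher and 8.79% lower). The median difference was 0.43 for H2A, -0.12 for H2B, -0.01 for H3 and -0.01 for H4 on the log2 scale, against -0.002 for all named genes. The members were chosen by name, so these counts and medians describe the types and are no test between them. The types also differ in brightness. Only 3 of the 9 H3 and 3 of the 10 H4 genes had a mean more than 0.5 above the array minimum. Their medians therefore rest largely on dim probes, where the scale compresses differences.

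H2ac7 belongs to the chromosome 13 cluster and encodes a canonical H2A. On the wild-type vehicle arrays it measured 9.11, 9.51, 9.36 and 9.18, and on the wild-type IL-4 arrays 10.16, 10.47, 10.74 and 10.34. The lowest IL-4 array was above the highest vehicle array. The group means were 9.29 ± 0.18 and 10.42 ± 0.24 (SD, n = 4 each), a difference of 1.13 (SE 0.12, limma adjusted p = 1.03e-05). In the knockout the same probe measured 9.03, 9.22, 9.40 and 9.07 under vehicle and 9.15, 8.91, 8.84 and 8.85 under IL-4. These groups overlapped, and 3 of the 4 knockout IL-4 arrays lay below the lowest wild-type vehicle array.

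H2ac12, the partner of H2bc12, measured 9.16, 9.33, 9.24 and 9.30 in wild type under vehicle and 9.97, 10.10, 10.32 and 10.25 under IL-4. The difference was 0.91 (SE 0.07, limma adjusted p = 4.99e-07), a 1.87-fold rise with no overlap of the groups. In the knockout it measured 8.96, 9.02, 9.20 and 8.90 under vehicle and 8.78, 8.79, 8.83 and 8.72 under IL-4. Here the 4 IL-4 arrays all lay below the 4 vehicle arrays, in the opposite order from wild type.

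H2ac15, the partner of H2bc15, measured 9.19, 9.38, 9.33 and 9.39 in wild type under vehicle and 10.21, 10.16, 10.30 and 10.09 under IL-4, which did not overlap. The rise was 0.87 (SE 0.07, limma adjusted p = 7.72e-07). The knockout arrays read 8.88, 9.16, 9.20 and 8.90 under vehicle and 8.88, 8.81, 8.77 and 8.70 under IL-4. The knockout IL-4 arrays again lay below the knockout vehicle arrays, though the closest arrays of both groups read 8.88.

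H2ac24 measured 11.45, 11.63, 11.33 and 11.68 in wild type under vehicle and 12.38, 12.32, 12.56 and 12.30 under IL-4. The rise was 0.87 (SE 0.14, limma adjusted p = 0.000362), or 1.82-fold. The knockout vehicle arrays read 10.79, 11.12, 11.33 and 10.55 and the knockout IL-4 arrays 10.82, 10.73, 10.55 and 10.54. Of these 8 knockout arrays only vehicle array 3 reached the lowest wild-type vehicle value.

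H2ac20, from the smaller cluster on chromosome 3, measured 11.38, 11.62, 11.41 and 11.54 in wild type under vehicle. Under IL-4 it measured 12.19, 12.15, 12.14 and 11.75, and the last array stood well below the other 3 but above every vehicle array. The difference was 0.57 (SE 0.13, limma adjusted p = 0.00555). The knockout arrays read 11.19, 11.33, 11.56 and 10.94 under vehicle and 10.90, 11.21, 11.08 and 11.24 under IL-4, with overlapping groups.

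H2ac10 measured 9.16, 9.31, 9.05 and 9.20 in wild type under vehicle and 9.99, 10.02, 10.20 and 9.86 under IL-4, a rise of 0.84 (SE 0.10, limma adjusted p = 2.38e-05). In the knockout it measured 8.89, 9.18, 9.36 and 8.88 under vehicle and 8.85, 8.82, 8.66 and 8.76 under IL-4, again with every IL-4 array below every vehicle array. The 3 other H2A genes that passed upward were H2ac22 (0.51, limma adjusted p = 0.00566), H2ac11 (0.36, limma adjusted p = 0.000193) and H2ac21, whose rise of 0.08 was small and lay close to the minimum (limma adjusted p = 0.00788). By chromosome, 7 of the 9 are on chromosome 13 and 2 on chromosome 3.

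H2ac18, also on chromosome 3, was the H2A gene that went the other way. It measured 8.74, 8.62, 8.56 and 8.73 under vehicle and 8.39, 8.36, 8.49 and 8.41 under IL-4 in wild type, a fall of 0.25 on the log2 scale (SE 0.06, limma adjusted p = 0.00567). The 4 H2A genes that did not pass, H2ac1, H2ac4, H2ac6 and H2ac8, were all near the minimum, with differences from -0.01 to 0.02. A near-minimum probe cannot show whether its gene changed.

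**Figure D2:**
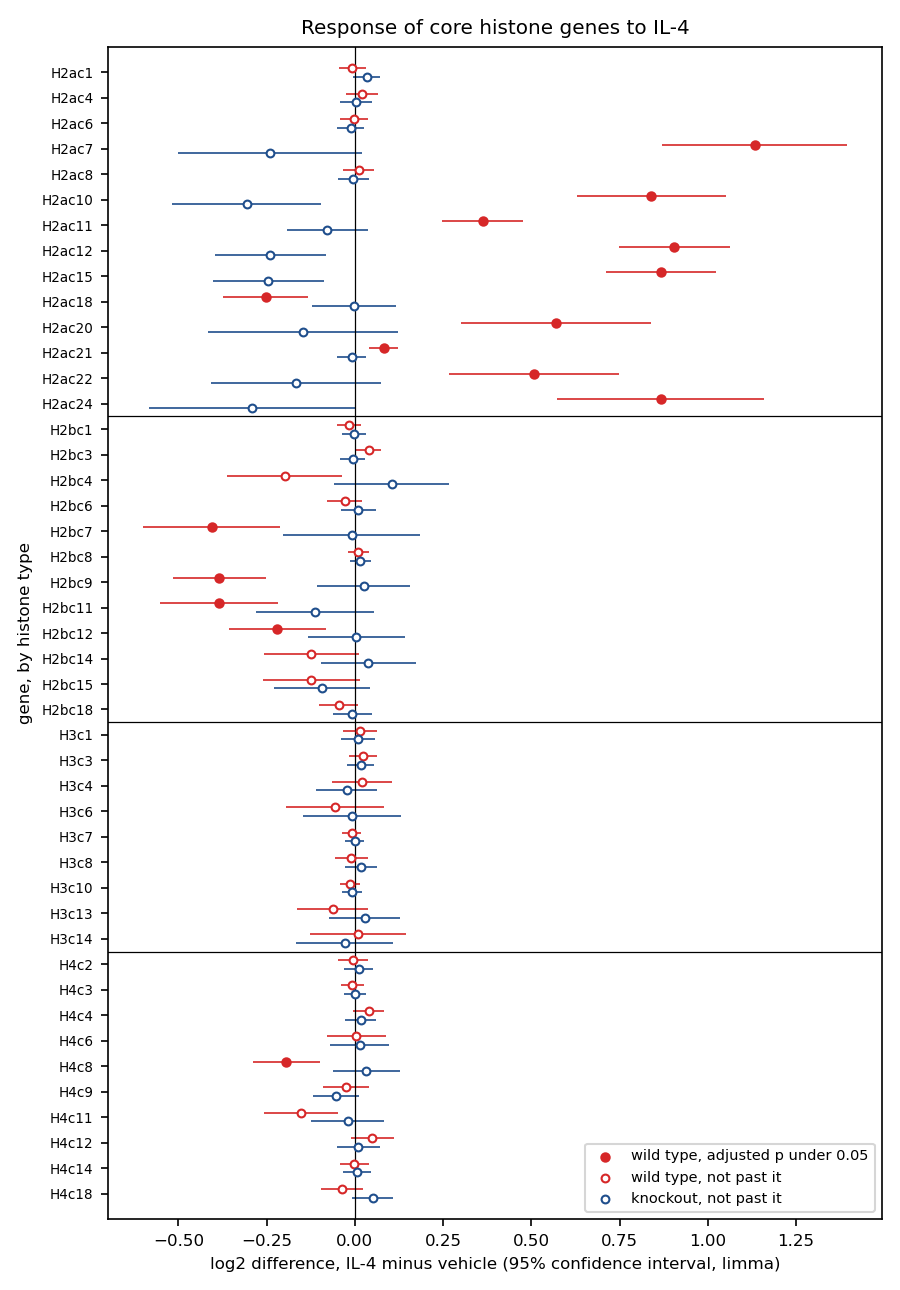
Difference between IL-4 and vehicle on the log2 scale for each histone gene in wild type (red) and in the knockout (blue), with 95% confidence intervals before adjustment; filled points passed at a limma adjusted p under 0.05. The wild-type points of 9 H2A genes lie between 0.08 and 1.13, their knockout points between -0.31 and -0.01, and no knockout point is filled.

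Of the 12 H2B genes, 4 fell and 8 did not pass. H2bc7 measured 10.41, 10.37, 10.36 and 10.71 in wild type under vehicle and 10.32, 9.93, 9.97 and 9.996 under IL-4. The groups did not overlap, although IL-4 array 5 came close to the lowest vehicle arrays, and the fall was 0.41 on the log2 scale (SE 0.09, limma adjusted p = 0.00586). In the knockout the probe stayed between 10.30 and 10.54 on all 8 arrays.

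H2bc9 measured 9.56, 9.51, 9.47 and 9.73 under vehicle and 9.22, 9.17, 9.19 and 9.14 under IL-4 in wild type, and fell by 0.38 on the log2 scale (SE 0.06, limma adjusted p = 0.000428). Its knockout arrays read 9.44, 9.62, 9.64 and 9.62 under vehicle and 9.63, 9.46, 9.60 and 9.74 under IL-4. All 12 arrays outside the wild-type IL-4 group were above its highest array.

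H2bc11 measured 9.68, 9.64, 9.70 and 9.87 under vehicle and 9.42, 9.24, 9.34 and 9.35 under IL-4 in wild type, and fell by 0.38 on the log2 scale (SE 0.08, limma adjusted p = 0.00306). H2bc12 measured 8.76, 8.76, 8.77 and 8.96 under vehicle and 8.69, 8.55, 8.61 and 8.52 under IL-4, and fell by 0.22 on the log2 scale (SE 0.06, limma adjusted p = 0.0318). Both pairs of groups were free of overlap. The H2bc12 call was lost when wild-type vehicle array 4 (limma adjusted p = 0.106) or IL-4 array 6 (0.0884), 7 (0.0557) or 8 (0.0979) was left out.

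Among the other 8 H2B genes H2bc4 differed by -0.20 (95% interval before adjustment -0.36 to -0.04, limma adjusted p = 0.118), H2bc15 by -0.12 and H2bc14 by -0.12, and H2bc1, H2bc3 and H2bc8 were near the minimum. Of the 12 H2B differences, 10 were below 0.

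H3 and H4 genes gave the smallest differences, but fewer of their probes were bright. A mean more than 0.5 above the array minimum was reached by 3 of 9 H3 and 3 of 10 H4 genes. For H2A and H2B it was 8 of 14 and 7 of 12. The scale compresses differences near the minimum, so dim probes cannot show that their genes stayed flat. The 3 bright H3 genes, H3c13, H3c14 and H3c6, differed by -0.06, 0.01 and -0.06. The 3 bright H4 genes, H4c8, H4c11 and H4c9, differed by -0.19, -0.15 and -0.02. H3c14, an H3 gene on chromosome 3, measured 9.07, 9.07, 9.10 and 9.28 under vehicle and 9.04, 9.23, 9.18 and 9.10 under IL-4 in wild type. These arrays were intermixed, and the difference was 0.01 with a 95% interval before adjustment from -0.13 to 0.15 (limma adjusted p = 0.971). Its neighbour H3c13 differed by -0.06 (interval -0.16 to 0.04). All 9 H3 differences lay between -0.06 and 0.02.

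H4c8 was the single H4 gene that passed. It measured 8.90, 8.91, 8.94 and 9.08 under vehicle and 8.80, 8.69, 8.77 and 8.78 under IL-4 in wild type, and fell by 0.19 on the log2 scale (SE 0.04, limma adjusted p = 0.00718). H4c11 differed by -0.15 with groups that did not overlap and missed the threshold (limma adjusted p = 0.0536). The other 8 H4 differences lay between -0.04 and 0.05.

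Read by head-to-head pair, both partners passed in opposite directions in 3 of the 5 pairs. H2ac7 rose by 1.13 while H2bc7 fell by 0.41 on the log2 scale, H2ac12 rose by 0.91 while H2bc12 fell by 0.22, and H2ac11 rose by 0.36 while H2bc11 fell by 0.38. In all 3 of these pairs the H2A gene was the higher and the H2B gene the lower call. With 0 of the 12 H2B genes called higher, opposite calls within a pair could take no other order. H2ac15 rose by 0.87, and H2bc15 differed by -0.12 (interval -0.26 to 0.01, limma adjusted p = 0.290). The pair H2ac8 and H2bc8 was near the minimum and gave no reading. Among the stretches printed above, CCAAT stood 4 times between H2bc7 and H2ac7, 3 times between H2ac12 and H2bc12 and 5 times between H2ac11 and H2bc11, the 3 pairs with opposite calls. It stood 3 times between H2ac15 and H2bc15 and 2 times between H2ac8 and H2bc8.

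**Figure D3:**
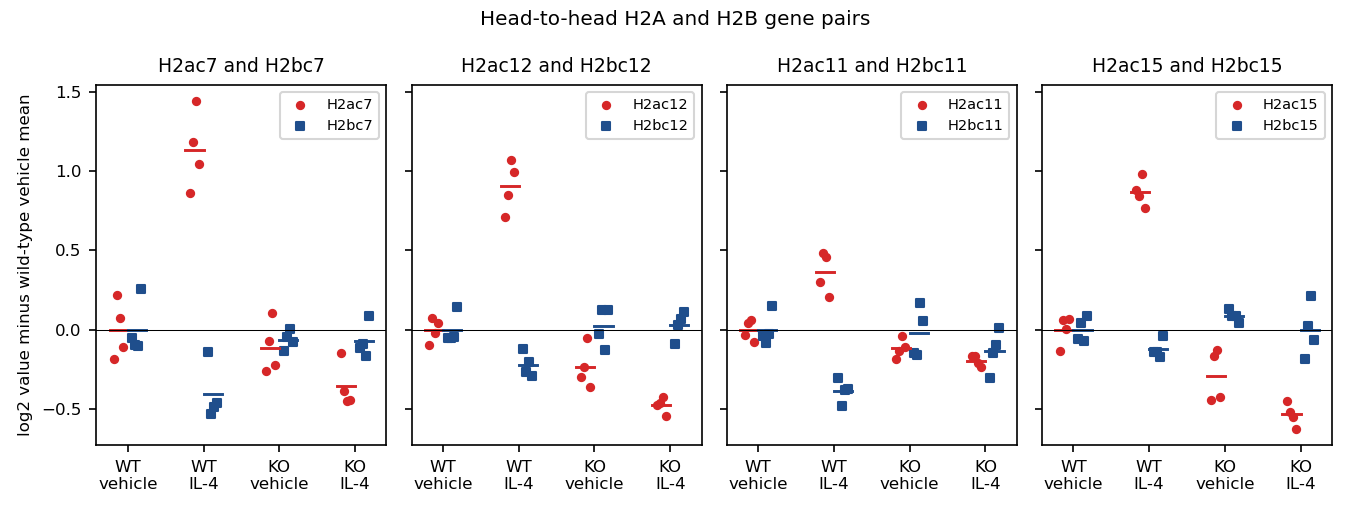
Log2 value of the H2A and the H2B gene of 4 head-to-head pairs on each array, minus the gene's wild-type vehicle mean. In all 4 panels the H2A points of wild type under IL-4 lie above 0, and the H2B points of that group lie lower than the H2A points.

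The next comparison was IL-4 against vehicle in cells without the receptor chain. Here 0 of 45 histone genes passed, against 0% of all named genes, and the smallest limma adjusted p among them was 0.852. Before adjustment 3 of the 45 (6.67%) had p under 0.05 in the limma fit, against 5.6% of all 25697 probes. These 3 were H2ac10 (-0.31, 95% interval -0.52 to -0.09), H2ac12 (-0.24, interval -0.40 to -0.08) and H2ac15 (-0.24, interval -0.40 to -0.09). The 9 H2A genes that rose in wild type all had differences below 0 in the knockout, from -0.31 to -0.01. Their vehicle arrays were uneven. Knockout vehicle array 3 was the highest of the 8 knockout arrays for 8 of the 9 genes, and arrays 2 and 3 together were above arrays 1 and 4 for 7 of the 9. With arrays 2 and 3 left out, an alternative chosen after the data were seen, H2ac12 differed by -0.15, H2ac15 by -0.10, H2ac7 by -0.11 and H2ac24 by -0.01, and H2ac20 turned to 0.047. Leaving out vehicle arrays that read high makes a fall smaller by construction. The refit therefore shows only that the size of these listed differences rested in part on arrays 2 and 3.

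Subtracting the knockout response from the wild-type response tests how far the IL-4 response depended on genotype. It passed for 10 of 45 genes, 8 higher and 2 lower, against 10% of all named genes (4.75% higher and 5.27% lower). The 8 were all H2A genes: H2ac7 (1.37, SE 0.17, limma adjusted p = 9.24e-05), H2ac24 (1.16), H2ac10 (1.15), H2ac12 (1.14), H2ac15 (1.11), H2ac20 (0.71), H2ac22 (0.67) and H2ac11 (0.44). For each of them the value is larger than the wild-type rise alone, since the knockout difference was below 0. H2bc9 (-0.41, SE 0.09, limma adjusted p = 0.00765) and H4c8 (-0.23, SE 0.06, limma adjusted p = 0.0377) were the 2 lower genes. The H4c8 call was lost when any of 11 of the 16 arrays was left out, with limma adjusted p up to 0.0822. H2bc7 (-0.40, limma adjusted p = 0.0772), H2bc11 (-0.27, 0.189) and H2bc12 (-0.22, 0.182) fell short, so their falls in wild type were not shown to differ from the knockout. With knockout vehicle arrays 2 and 3 left out 7 genes passed, and H2ac20 (0.52, limma adjusted p = 0.0950) and H2ac22 (0.53, 0.0736) were among those lost.

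**Figure D4:**
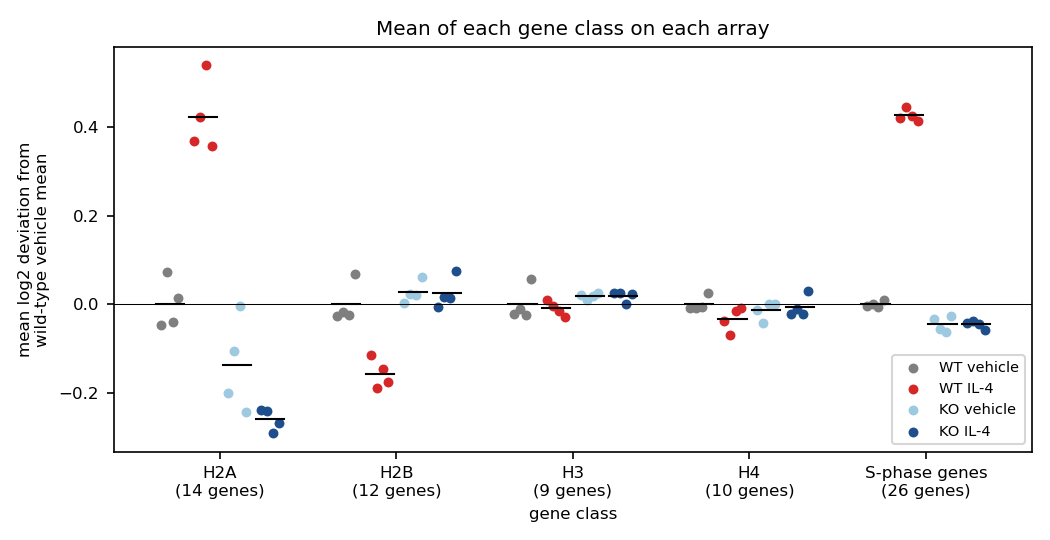
Mean over the genes of a type of the log2 value minus the wild-type vehicle mean, for each array, for the 14 H2A, 12 H2B, 9 H3 and 10 H4 genes and for 26 S-phase genes. H2A runs from 0.36 to 0.54 and the S-phase genes from 0.41 to 0.45 in wild type under IL-4; in the knockout H2A spreads from -0.29 to -0.003 and the S-phase genes stay between -0.06 and -0.03.

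Genotypes were then compared under each condition. These comparisons share arrays with those above, so their values are given side by side and not as separate evidence. Under vehicle 2 of 45 genes passed, against 3.27% of all named genes (1.42% higher and 1.85% lower in the knockout). H2ac24 was lower in the knockout by 0.57, with values of 10.55 to 11.33 against 11.33 to 11.68 (difference -0.57, SE 0.14, limma adjusted p = 0.0388). Its call was lost without any one of knockout vehicle array 1 or 4, knockout IL-4 array 2, wild-type IL-4 array 6, or wild-type vehicle array 1, 2 or 4, with limma adjusted p up to 0.115. H3c13 read 9.34, 9.50, 9.45 and 9.48 in wild type and 9.64, 9.69, 9.76 and 9.61 in the knockout, without overlap, and was higher by 0.23 (SE 0.05, limma adjusted p = 0.0149). Without knockout vehicle arrays 2 and 3 it was higher by 0.18 and the call was lost (limma adjusted p = 0.143). H2ac15 missed the threshold (-0.29, limma adjusted p = 0.0512). It passed in 9 alternatives and missed it in the others, with limma adjusted p up to 0.144. Among the 9 were a trended and robust variance prior (limma adjusted p = 0.00863) and the fit without knockout vehicle arrays 2 and 3 (-0.43, 0.0062). These arrays read highest of their group for H2ac15, so leaving them out enlarges its difference by construction. They also read highest of their group for H2ac24, so its larger difference without them (-0.85, limma adjusted p = 0.00335) follows by construction as well. It does not make the H2ac24 call firmer.

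Under IL-4 16 of 45 genes passed, 7 higher and 9 lower in the knockout, against 17.3% of all named genes (9.11% higher and 8.18% lower). The 9 lower genes were the H2A genes that rose in wild type. Their differences ran from -1.73 for H2ac24 (SE 0.14, limma adjusted p = 3.2e-07) and -1.49 for H2ac7 (SE 0.12, limma adjusted p = 4.77e-07) to -0.12 for H2ac21. Under IL-4 the knockout thus had 0.301 times the wild-type value of H2ac24 and 0.357 times that of H2ac7.

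The 7 higher genes were 6 H2B genes and H3c13. H2bc4 read 9.28, 9.33, 9.50 and 9.29 in wild type and 10.01, 9.78, 9.77 and 9.78 in the knockout, both under IL-4, and was higher by 0.48 (SE 0.08, limma adjusted p = 0.000365). A second probe of H2bc4, with a mean of 7.78 and so near the minimum, differed by 0.003 (limma adjusted p = 0.933). H2bc9 was higher by 0.43, H2bc7 by 0.34, H2bc14 by 0.29, H2bc11 by 0.25 and H2bc12 by 0.25. The groups of H2bc7, H2bc11 and H2bc14 overlapped. The H2bc11 call (limma adjusted p = 0.0444) was lost without any one of 9 arrays, with adjusted p up to 0.138, and that of H2bc7 without knockout IL-4 array 4 or wild-type IL-4 array 6, 7 or 8, with adjusted p up to 0.0685. H3c13 read 9.45, 9.25, 9.35 and 9.47 in wild type and 9.72, 9.71, 9.69 and 9.69 in the knockout under IL-4, and was higher by 0.32 (SE 0.05, limma adjusted p = 0.000158). It was higher in the knockout under both conditions, and its difference of responses was -0.09 (interval -0.23 to 0.05, limma adjusted p = 0.568).

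S-phase genes, most of them genes of DNA replication, were also measured. Of 26 of them 20 rose and 0 fell under IL-4 in wild type, against 7.14% higher and 8.79% lower over all named genes, with a median of 0.42 against -0.002. In the knockout 0 passed, as for all named genes (0%). The largest were Mcm5 (1.07) and Mcm4 (0.94), subunits of the replicative helicase, and Uhrf1 (1.04), which couples DNA methylation to replication (limma adjusted p = 5.97e-12, 2.57e-08 and 2.83e-08). Over the alternatives Mcm5 stayed between 0.99 and 1.09, but Mcm4 ran from 0.35 to 0.97 and Uhrf1 from 0.52 to 1.07. The mean deviation of the 26 genes ran from 0.41 to 0.45 on the wild-type IL-4 arrays, from -0.01 to 0.01 on the wild-type vehicle arrays, from -0.06 to -0.03 on the knockout vehicle arrays and from -0.06 to -0.04 on the knockout IL-4 arrays. The corresponding ranges for the 14 H2A genes were 0.36 to 0.54, -0.05 to 0.07, -0.24 to -0.003 and -0.29 to -0.24. On knockout vehicle arrays 1 and 4 the H2A mean was -0.20 and -0.24, close to the knockout IL-4 arrays, and on arrays 2 and 3 it was -0.11 and -0.003. Between genotypes under vehicle 0 of the 26 S-phase genes were higher and 2 lower in the knockout, against 1.42% and 1.85% of all named genes. Mcm5 was among the 2 (-0.19). The part of S-phase in the histone results was not tested.

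Linker histone H1 genes, which bind the nucleosome from outside, gave 0 rises and 1 fall among 7 measured, of which 4 were near the minimum, a share close to the 15.9% called over all named genes. H1f2 fell by 0.56 on the log2 scale (SE 0.05, limma adjusted p = 1.93e-06). Its difference of responses was -0.63 (limma adjusted p = 4.18e-05). H1f2 also differed between genotypes under vehicle (-0.29, knockout minus wild type).

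Histone variants that are made outside the replication programme, or that replace the canonical forms, gave 3 rises and 1 fall among 10 measured (all named genes 7.14% higher and 8.79% lower). Cenpa, the centromeric H3, rose by 1.42 (SE 0.05, limma adjusted p = 7.92e-11). H2az1, the H2A.Z variant found at promoters, rose by 0.56 (limma adjusted p = 0.000255), and H2ax, whose product is phosphorylated at DNA breaks, by 0.48 (limma adjusted p = 2.55e-05). H3f3a, which encodes the replacement histone H3.3, fell by 0.37 on the log2 scale (limma adjusted p = 5.76e-05). Over the alternatives the H3f3a difference ran from -0.41 to -0.19. All 4 genes also passed in the difference of responses. Between genotypes under vehicle 1 of the 10 variants was higher and 2 were lower in the knockout, against 1.42% and 1.85% of all named genes. Cenpa was among the lower ones (-0.39).

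Among 18 measured genes that serve transcription and 3′ end processing of histone messages, 4 rose and 0 fell, against 7.14% higher and 8.79% lower over all named genes. Cdk2, the kinase that with cyclin E activates histone transcription, rose by 0.46 (limma adjusted p = 9.43e-07), and the cyclin E genes Ccne2 and Ccne1 by 0.44 and 0.09. Both cyclin E genes are also on the S-phase list and were counted there. Cstf2, a cleavage factor, rose by 0.21 (limma adjusted p = 0.0137; 0.0502 without wild-type IL-4 array 8). Slbp and Casp8ap2, which acts at histone gene loci, had wild-type vehicle means of 7.81 and 7.82 near the minimum, and Npat was not measured. Of 13 measured genes of histone message turnover 2 passed, a share close to the 15.9% called over all named genes. They were Exosc2 (0.22), an exosome subunit, and Dbr1 (0.17), the lariat debranching enzyme. Lariats come from introns, which most of these histone genes lack, so Dbr1 is not a specific member of this list.

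Chaperones that carry new histones to DNA gave 8 rises and 1 fall among 22 measured, against 7.14% higher and 8.79% lower over all named genes. Hjurp, the loading factor of Cenpa, rose by 0.66 (limma adjusted p = 0.00103). Chaf1b and Chaf1a, subunits of the assembly factor CAF-1, rose by 0.55 and 0.54. Hat1, which acetylates new H4, rose by 0.48 (limma adjusted p = 3.54e-06), Nasp, which carries H3 and H4, by 0.30, and Asf1b by 0.24. Mcm2, which is also on the S-phase list, rose by 0.51 and Mms22l by 0.12. Nap1l4, a chaperone of H2A and H2B, fell by 0.26 on the log2 scale (limma adjusted p = 0.00544). In the knockout 0 of the H1, variant, processing, turnover and chaperone genes passed. Between genotypes under vehicle 0 of the 22 chaperone genes were higher and 3 lower in the knockout, against 1.42% and 1.85% of all named genes. Hat1 (-0.24) and Chaf1b (-0.13) were among the 3. The Hat1 call was lost without wild-type vehicle array 2 and the Chaf1b call without wild-type vehicle array 1 or 4. For processing genes the counts were 0 and 1 of 18, and for turnover genes 0 and 0 of 13.

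Of the markers of other cells, 0 of 8 myogenic genes passed in wild type. Of 8 leukocyte genes 5 were near the minimum and 1 passed, Lyz2, with a fall of 1.07 on the log2 scale (limma adjusted p = 3.65e-08). The mean deviation of the leukocyte list was -0.16 to -0.14 on the wild-type IL-4 arrays against -0.01 to 0.01 on the wild-type vehicle arrays and 0.02 to 0.09 on the knockout arrays. The median difference of that list was -0.01, so its mean rested largely on Lyz2. The endothelial list gave 1 rise and 1 fall of 8, and the pericyte and smooth muscle list 0 rises and 1 fall of 8, beside the 15.9% called over all named genes. Of 14 FAP genes, 0 of them near the minimum, 6 rose and 4 fell. These shares were well above the 7.14% higher and 8.79% lower over all named genes. The part of cell composition in the histone results was not tested.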

How the data were processed

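RNA of 16 cultures of FAPs (4 groups, 4 arrays each) was hybridised to Illumina mouse bead arrays, and groups were taken from the sample titles and treatments. The deposited table holds one log2 value per probe and array, read as log2 from its range; the authors had already normalized it, for after sorting no pair of arrays differs by more than 0.000592 at any rank. How the background was treated, with which software, and the log base are not given in the sources used here. The number of arrays limits the precision.

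All 25697 probes were fitted in R 4.3.3 with limma 3.58.1 on all 16 arrays (a mean per group, 12 residual degrees of freedom, eBayes, no further normalization or filter). Two-sided p-values were adjusted over all probes by the Benjamini-Hochberg method, and 0.05 was the threshold. Probes were named through the platform annotation (23978 with 1 symbol, 1719 without), and a gene was read by its brightest probe. Histone symbols were unchanged in RefSeq for 45 of 45 genes. The code was tested on simulated data. Figures were drawn with matplotlib 3.10.9.

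The members, gene lists and naming rule were chosen with earlier results of these data known. Per histone type the rule named up to 4 genes with the largest wild-type change past the threshold, up to 2 per genotype contrast, every gene past it in the knockout response, the brightest probe, the bright probe with the smallest change, and genes whose probes disagree; per list it named up to 3 rising and 3 falling genes and a fixed set. All other members named with values (among them H2ac10, H2ac11, H2ac18, H2ac21, H2ac22, H2bc14, H2bc15 and H4c11), and Ccne1, Mcm2, Mms22l and Lyz2, were chosen after their values were seen. Alternatives were another quantile normalization, median centring, array weights, a filter on dim probes, a robust variance prior with a trend, an offset of 50, only the groups compared, a threshold of 0.01, the mean of a gene's probes, the replicate number as a block, and each array left out.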

Additional observations from a re-analysis of the deposited data

Results flagged for a closer look

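A single array stood far from the other 3 of its group in 9 of the 140 groups examined for the named genes; chance gives about 1 in 20. Among the histone genes these were H2ac20 at 11.75 on wild-type IL-4 array 8 (the others 12.14 to 12.19), H2bc12 at 8.96 (others 8.76 to 8.77) and H2bc7 at 10.71 (others 10.36 to 10.41), both on wild-type vehicle array 4, H2bc9 at 9.44 on knockout vehicle array 1 (others 9.62 to 9.64), and H2bc4 at 10.01 on knockout IL-4 array 1 (others 9.77 to 9.78). Among the list genes they were Ccne2 at 8.01 on wild-type vehicle array 4, Uhrf1 at 8.37 on wild-type vehicle array 3, Chaf1b at 8.83 on wild-type IL-4 array 5 and H2ax at 8.59 on knockout IL-4 array 4. Wild-type vehicle array 4 accounts for 3 of the 9.

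The IL-4 response differed between the genotypes, by limma's test of the difference, for 23 of the 35 genes named by the rule above. Over all genes with a name the share was 10%. Many of the 35 were named for a large wild-type or genotype difference, so a high share follows in part from that choice. For the histone genes the wild-type response minus the knockout response was 1.37 for H2ac7, 1.16 for H2ac24, 1.14 for H2ac12, 1.11 for H2ac15, 0.71 for H2ac20, -0.41 for H2bc9 and -0.23 for H4c8. For linker histone and variants it was -0.63 for H1f2, 1.39 for Cenpa, 0.57 for H2az1, 0.54 for H2ax and -0.39 for H3f3a. For chaperones it was 0.62 for Hjurp, 0.56 for Chaf1a, 0.56 for Chaf1b, 0.45 for Hat1, 0.27 for Nasp and 0.22 for Asf1b. The Hjurp call was lost when any one of 9 arrays was left out (limma adjusted p up to 0.068) and without knockout vehicle arrays 2 and 3 (0.126). For cell cycle genes it was 1.12 for Mcm5, 1.06 for Uhrf1, 0.94 for Mcm4, 0.47 for Cdk2 and 0.42 for Ccne2. Over the alternatives the value for Uhrf1 went down to 0.52 and that for Mcm4 to 0.34, and that for H3f3a ran from -0.43 to -0.19.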

How the results depend on the processing

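The count of histone genes past the threshold stayed within 1.5 times its reported value in the wild-type response (14 to 17 over the alternatives), the knockout response (0 throughout), the difference of responses (7 to 12) and between genotypes under IL-4 (13 to 17). By type, 9 H2A genes were higher in the wild-type response and 9 lower in the knockout under IL-4 throughout. The H2B counts were less stable, with 3 to 5 lower in the wild-type response and 3 to 6 higher in the knockout under IL-4. Between genotypes under vehicle the 2 calls became 4 with a trended and robust variance model, 1 with only the groups compared and 0 at a threshold of 0.01. With a replicate block on the numbers in the titles they became 0, and the knockout response stayed at 0. Deviations of same-numbered arrays correlated at -0.22 to 0.14, and wild-type numbers differ between treatments. The numbers were not treated as pairs in the main fit. With 4 arrays per group these correlations cannot exclude that same-numbered knockout arrays share a donor. Leaving out each array in turn gave 1 to 4 calls, 4 without knockout vehicle array 3 and 1 without knockout vehicle array 1 or 4, knockout IL-4 array 2, wild-type vehicle array 2 or 4, or wild-type IL-4 array 6. The H2ac20 difference in the knockout turned from -0.15 to 0.047 with knockout vehicle arrays 2 and 3 left out, chosen after seeing the data; neither passed, and the cause was not tested. The filter on dim probes kept 11887 probes and 31 of the histone genes. Another quantile normalization and median centring moved no count. The scale compresses differences near the minimum, so a small difference there is not shown to be absent.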
